A study of Mus musculus with 24 samples.

Results

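The miR-199a/miR-214 cluster was examined in the lungs of mice that carry a c-Raf transgene and of wild type mice. Its members were the 3 array miRNAs named mmu-miR-214, mmu-miR-199a-3p and mmu-miR-199a-5p, out of 611 mouse miRNAs on the array. They were chosen by name, with the differences between transgenic and wild type lungs on these same arrays already known. Values of that contrast are therefore given for them as a description and without a test. Total RNA was hybridised to 1-colour Agilent miRNA arrays on 24 arrays in 4 groups of 6. M c-Raf and F c-Raf were male and female SP-C/c-raf transgenics: the promoter of the surfactant protein C gene drives an activated c-Raf kinase in their lung epithelium. M WT and F WT were male and female wild type mice without a transgene. All animals were 4 to 6 months old, and the labels describe cells microdissected from stained frozen sections. The study's array methods speak instead of RNA from each lung, so which cells gave the RNA is not settled here. The labels name the tissue lung adenocarcinoma for all 24 samples, wild type included. They state no batch and number the animals of each group from 1 to 6. The arrays lay on 6 slides, each with 1 array of every group.

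Mir199a-2 and Mir214 are neighbouring miRNA genes that are made from 1 long non-coding transcript, Dnm3os, which runs antisense to an intron of the dynamin 3 gene. The transcript is known from mesenchymal cells of the embryo, and the miRNAs are studied in fibroblasts and fibrosis. A miRNA gene gives a hairpin from which a 5p and a 3p arm can be cut, and the bases 2 to 8 of an arm, its seed, do most of the pairing with target mRNAs. Arms of 1 hairpin can therefore act on different targets and can reach different levels.

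The mature sequences show how far the members can be told apart by a probe and which seeds they carry. RefSeq (GRCm38.p6) gave a mature sequence for all 3 members. They are written 5′ to 3′ with the seed in capitals, and miR-214 is listed there as miR-214-3p:
miR-214: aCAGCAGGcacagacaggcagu
miR-199a-3p: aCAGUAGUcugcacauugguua
miR-199a-5p: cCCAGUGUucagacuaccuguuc
The seeds of the 3 members differed from one another. Whether other miRNAs carry the seed of miR-199a-5p is not stated here. The sequence of miR-214 occurred in 1 miRNA gene of the reference table, that of miR-199a-5p in 2 and that of miR-199a-3p in 3. The third gene of the miR-199a-3p sequence was Mir199b, whose 3p arm is identical over its whole length, so the signal of miR-199a-3p cannot be assigned to a gene. The seed of miR-214 was shared with 1 miRNA of the table:
miR-761: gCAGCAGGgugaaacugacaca
miR-761 was on the array and was detected on 0 of 24 arrays.

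The hairpins of the cluster are shown with both arms in capitals, since 2 members are arms of the same precursor:
Mir199a-2: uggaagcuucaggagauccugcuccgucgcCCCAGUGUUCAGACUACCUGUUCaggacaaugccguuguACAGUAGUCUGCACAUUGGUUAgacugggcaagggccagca
Mir214: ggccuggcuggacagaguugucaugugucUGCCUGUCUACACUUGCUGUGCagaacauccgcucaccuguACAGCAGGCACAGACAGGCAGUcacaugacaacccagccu
In GRCm38.p6, Mir199a-2 lies at chr1:162217814-162217923 and Mir214 at chr1:162223368-162223477, both on the plus strand, with 5444 bases between them. Both lie within Dnm3os (chr1:162217623-162225550) and within the bounds of Dnm3 (chr1:161982450-162478321). The other miR-199a gene, Mir199a-1, lies at chr9:21496495-21496564 within the bounds of Dnm2. Mir199b lies at chr2:32318460-32318569 within those of Dnm1.

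The 3 members were not detected alike. The extraction software's detection flag was set for miR-214 on 24 of 24 arrays and for miR-199a-3p on 22. For miR-199a-5p, the other arm of the miR-199a hairpin, it was set on 3. The 2 arrays without miR-199a-3p were M c-Raf replicate 6 and M WT replicate 4, the 2 dimmest of all. Array brightness, the 75th percentile of the spots of the 27 miRNAs detected on every array, ran from 34.9 to 1212 intensity units. It was 34.9 to 1212 with a median of 433 in M c-Raf, 52.8 to 231 with a median of 176 in M WT, 86.9 to 359 with a median of 193 in F c-Raf and 57.2 to 550 with a median of 265 in F WT. The miRNAs detected numbered 38 to 179 per array. M c-Raf thus held both the dimmest and the brightest array. miR-214 was itself among the 27 miRNAs, so its own spots entered the brightness by which its values were divided.

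Values are given as scaled intensity, which is a miRNA's median spot intensity, taken over its 20 spots, divided by the brightness of the array, on the log2 scale. Scaled values under 0.01 were set to 0.01, a floor of -6.64. miR-214 had a lowest value of -2.50, a median of -2.41 and a highest value of -1.34 in M WT, with a mean of -2.23 ± 0.45 (SD, n = 6). In F WT it lay between -2.97 and -2.29 with a median of -2.60 and a mean of -2.62 ± 0.24 (SD, n = 6). In M c-Raf it lay between -3.40 and -3.10 with a median of -3.27 and a mean of -3.26 ± 0.13 (SD, n = 6). In F c-Raf it lay between -4.07 and -3.01 with a median of -3.19 and a mean of -3.30 ± 0.39 (SD, n = 6). All wild type arrays were above all c-Raf arrays of the same sex. In females the gap was narrow, with the lowest F WT array at -2.97 and the highest F c-Raf array at -3.01. By mean, M WT ranked highest, followed by F WT, then M c-Raf, with F c-Raf lowest. The ranges of M WT and F WT overlapped, and that of M c-Raf lay within that of F c-Raf.

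miR-199a-3p, whose sequence occurs in 3 miRNA genes, the neighbouring Mir199a-2 among them, showed no such separation. It lay between -4.07 and -2.89 in M WT (median -3.34, mean -3.41 ± 0.39, SD, n = 6) and between -3.32 and -2.65 in M c-Raf (median -3.20, mean -3.11 ± 0.24, SD, n = 6). In F WT it lay between -3.50 and -2.91 (median -3.11, mean -3.18 ± 0.25, SD, n = 6), and in F c-Raf between -3.44 and -2.67 (median -3.02, mean -3.06 ± 0.28, SD, n = 6). The order of the means was F c-Raf, M c-Raf, F WT and M WT, and each range overlapped the other 3. The lowest value, in M WT, came from replicate 4, where the miRNA was not detected.

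miR-199a-5p was not well enough measured for a comparison. The flag was set on 2 arrays of M c-Raf (replicates 4 and 5), on 1 F WT array (replicate 4) and on 0 arrays of M WT and F c-Raf. These were the 2 brightest arrays of M c-Raf, at 1212 and 792, and the brightest of F WT, at 550. Its scaled value was at the floor on 5 of 6 arrays in M c-Raf, M WT and F WT and on 3 of 6 in F c-Raf. The unscaled intensity of its brighter probe was -0.790 to 20.4 units in M c-Raf, 0.540 to 6.58 in M WT, 0.887 to 3.67 in F c-Raf and 0.499 to 6.50 in F WT. The 2 highest values, 20.4 and 15.2, belonged to the M c-Raf arrays that detected it. It did not enter the fit across miRNAs, and no fold is given. Fewer cells of a type and less RNA per cell cannot be told apart in such samples, for any member.

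**Figure D1:**
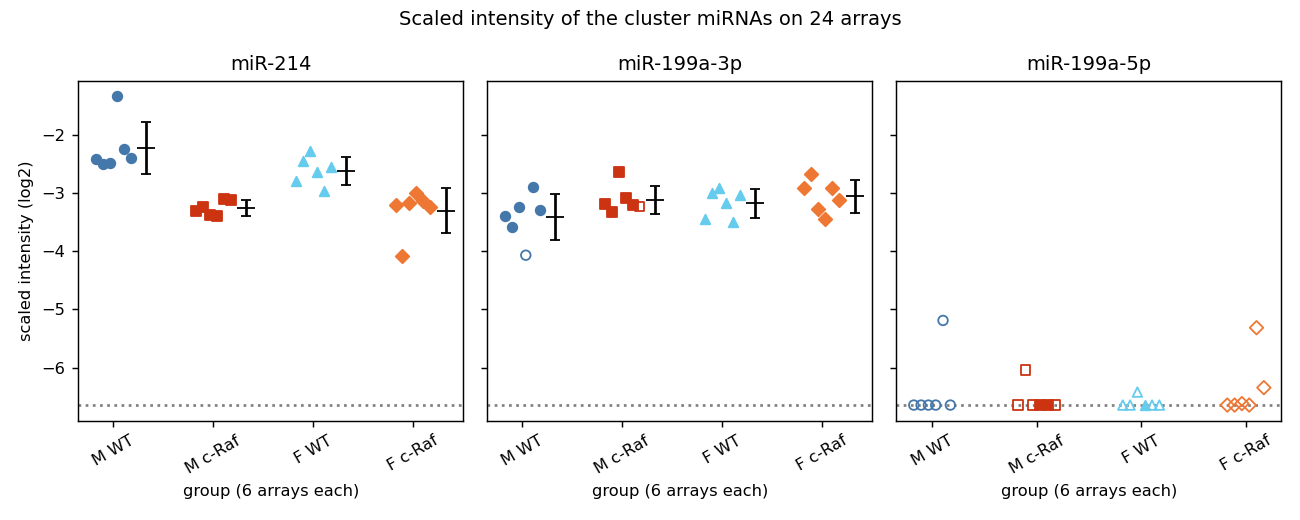
Scaled intensity (log2) of each member on the 24 arrays by group; filled symbols are arrays on which the miRNA was detected, open symbols those on which it was not, the dotted line is the floor, and bars give mean and SD (n = 6). For miR-214 every WT array lies above every c-Raf array of the same sex, the miR-199a-3p groups overlap, and most miR-199a-5p values lie at the floor.

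Each member was measured by 2 different probes with 10 spots each, and the members' probes differed in brightness. The brighter miR-214 probe gave an unscaled intensity of 35.7 to 105 units in M WT, 6.15 to 222 in M c-Raf, 19.3 to 168 in F WT and 22.5 to 97.3 in F c-Raf. The dimmer probe gave 2.84 to 7.17, -0.958 to 29.0, 0.179 to 24.1 and 0.625 to 9.21 in the same order. A median taken over all 20 spots therefore lies between its brighter and its dimmer spots. The spots of a probe agreed closely on most arrays. The coefficient of variation over the 10 spots of the brighter probe had a median over arrays of 8.96% for miR-214 and 10.5% for miR-199a-3p. It was highest, at 76.1% and 44.7%, on M c-Raf replicate 6 and M WT replicate 4.

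Both miR-214 probes had a lower group mean in c-Raf than in WT, as a description of the contrast by which the miRNA was chosen. After scaling, the brighter probe differed by -1.08 (SE 0.17) in males and -0.55 (SE 0.21) in females on the log2 scale, and the dimmer probe by -0.84 (SE 0.36) and -0.57 (SE 0.40). The dimmer probe was at the floor on 2 arrays of M c-Raf, 0 of M WT, 1 of F c-Raf and 1 of F WT. Its differences thus rest in part on floored values. Only the male groups of the brighter probe did not overlap. Both miR-199a-3p probes differed upwards, the brighter by 0.47 (SE 0.22) in males and 0.25 (SE 0.11) in females, and the dimmer by 0.05 (SE 0.51) and 0.16 (SE 0.16), with overlapping groups in each case.

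**Figure D2:**
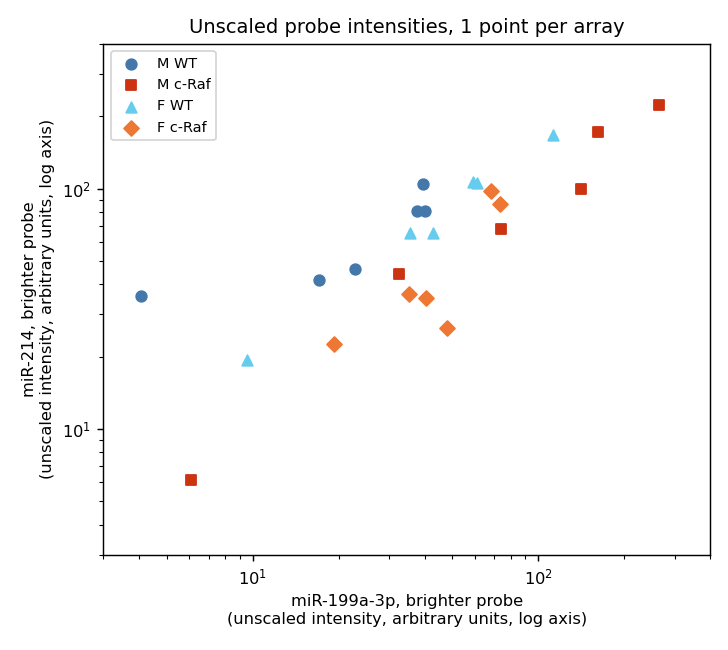
Unscaled intensity of the brighter probe of miR-214 against that of miR-199a-3p, both in arbitrary units on log axes, with 1 point per array and no normalization between arrays. Arrays range from 6.15 to 222 units for miR-214, and every WT array has a higher ratio of miR-214 to miR-199a-3p than every c-Raf array of the same sex.

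To describe the cluster under the transgene, M c-Raf was set against M WT and F c-Raf against F WT. miR-214 differed by -1.03 (SE 0.19) in males and -0.69 (SE 0.19) in females on the log2 scale, and miR-199a-3p by 0.30 (SE 0.18) and 0.12 (SE 0.18). The median difference over the 120 miRNAs tested, those detected on at least 6 of the 24 arrays, was 0.08 in males and 0.03 in females. Ordered from the lowest difference, miR-214 was 8 of 120 in males and 7 of 120 in females, and miR-199a-3p was 78 and 72. Limma called 2.50% of the 120 miRNAs in males and 5.00% in females at an adjusted p under 0.05, as background for these positions. Groups of arrays without overlap, as those of miR-214 in both sexes, were found for 2.50% of the 120 miRNAs in males and likewise 2.50% in females. Nothing is read from these shares, since miR-214 was chosen on this contrast.

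The size of the difference was not the same on every slide. Array by array on the 6 slides, miR-214 by the median of all spots was lower in c-Raf on 6 of 6 slides in each sex. The differences ran from -2.06 to -0.71 in males and from -1.62 to -0.17 in females. The largest male difference was that of slide 4, which holds M WT replicate 4, and the largest female difference that of slide 2, which holds F c-Raf replicate 2. miR-199a-3p was higher in c-Raf on 5 of 6 slides in males, from -0.32 to 0.98, and on 3 of 6 in females, from -0.38 to 0.59. In females the slides of miR-199a-3p thus divided evenly.

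The arrays were scanned in 4 scans, each of which held all 4 groups. Within scans 1, 2, 3 and 4, miR-214 differed by -0.37, -0.42, -0.42 and -1.25 in females, and in males the lowest value, in scan 1, was -2.06 against -0.78, -0.88 and -0.82 in the others. miR-199a-3p differed by 0.98, -0.13, 0.20 and 0.43 in males and by -0.26, 0.25, 0.54 and -0.02 in females. miR-214 was lower in c-Raf within every scan in both sexes, while the sign for miR-199a-3p changed between scans. Each scan held whole slides, and scans 1 and 3 held 1 slide each, with 1 array per group. Since miR-214 by the median of all spots was lower on every slide, its sign within scans was fixed by the slides and adds no further support. Each group occupied the same position on every slide, so that position and group cannot be told apart.

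The scaling between arrays moved these differences. With no scaling, miR-214 differed by 0.15 in males, where the median of all miRNAs tested moved to 1.18, and by -0.91 in females, where it moved to -0.19. With a percentile over all spots it differed by -0.33 in males beside a median of 1.00. With a model-based background correction (normexp) it differed by 0.30 in females beside a median of 0.62, and miR-199a-3p by -0.44 in males beside a median of -0.79. The value of miR-214 was below the median of all miRNAs tested in each of these settings, except in males under normexp, where it was -0.78 beside a median of -0.79.

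**Figure D3:**
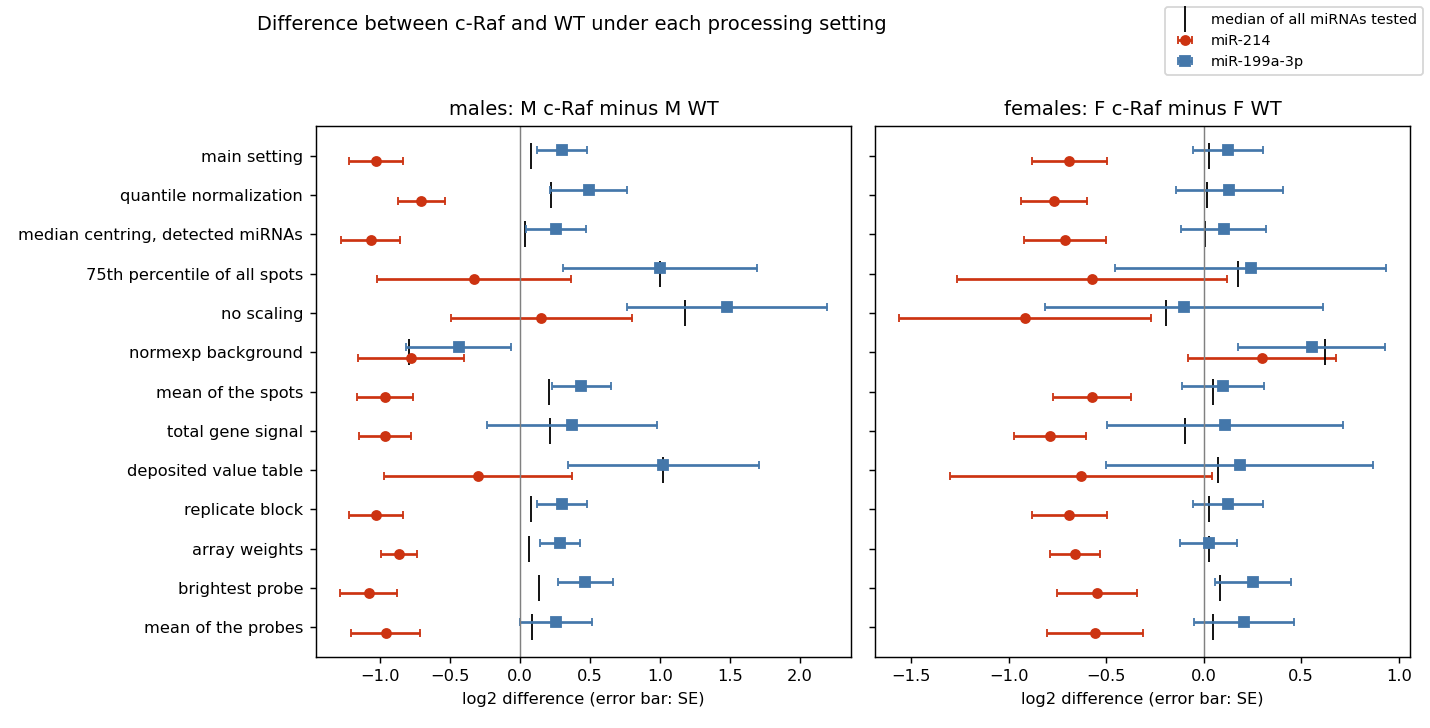
Log2 difference between c-Raf and WT for miR-214 and miR-199a-3p over all 4 scans, under the main setting and alternatives named on the axis. Each has its SE and the median over all miRNAs tested as a black tick, with males on the left and females on the right. Settings that changed the floor or the detection filter, or left out an array, are not drawn. Over the settings drawn, the miR-214 difference runs from -1.08 to 0.15 in males and reaches 0.30 in females under normexp.

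The difference between miR-214 and miR-199a-3p on the same array does not depend on a scaling by 1 factor per array, though it does on quantile normalization. Only its change between groups is meaningful, since 2 different probes have no common scale. It lay between 0.65 and 2.73 in M WT (median 0.94) and between -0.74 and 0.12 in M c-Raf (median -0.02). In F WT it lay between 0.48 and 0.67 (median 0.54) and in F c-Raf between -1.40 and 0.43 (median -0.17). The groups of c-Raf and WT did not overlap in either sex. The mean was 1.32 lower on the log2 scale in M c-Raf than in M WT (-1.32, SE 0.34) and 0.81 lower in F c-Raf than in F WT (-0.81, SE 0.26), on 6 of 6 slides each. This is again the contrast behind the choice of miR-214 and was not tested. The difference contains the miR-214 values, whose groups did not overlap either. No share over other pairs of miRNAs is given beside it.

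The same separation was present with only the brighter probe of each miRNA, where the difference lay between 1.01 and 3.13 in M WT, -0.50 and 0.44 in M c-Raf, 0.57 and 1.02 in F WT and -0.86 and 0.51 in F c-Raf. The value of 3.13 was that of M WT replicate 4. With normexp it shrank to -0.34 in males and -0.26 in females. The offset of 50 units added there exceeds the intensity of either brighter probe on several arrays.

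**Figure D4:**
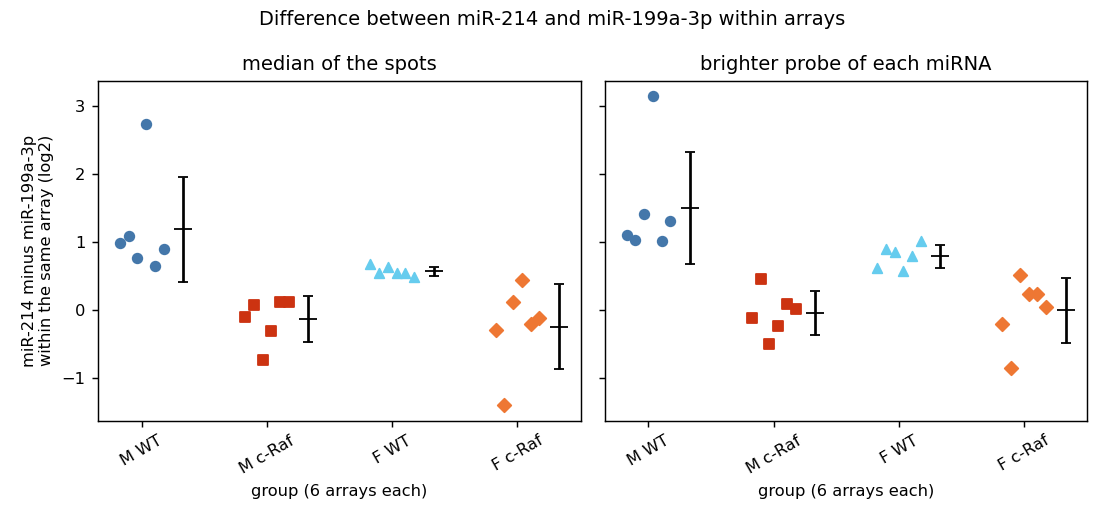
Difference between miR-214 and miR-199a-3p on the same array (log2) by group, from the median of all spots (left) and from the brighter probe of each miRNA (right), with bars for mean and SD (n = 6). In both panels WT and c-Raf of a sex do not overlap, and M WT replicate 4, at 2.73 and 3.13, stands above all other arrays.

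To ask whether the cluster differed between the sexes, M WT was compared with F WT, M c-Raf with F c-Raf, and the c-Raf effect of one sex with that of the other, with limma over the 120 miRNAs, of which miR-214 and miR-199a-3p were 2. These tests use the arrays on which miR-214 was chosen, and the last is the difference between both contrasts behind that choice, so their p-values are not independent of it. miR-214 differed by 0.38 between M WT and F WT (SE 0.19, 95% confidence interval -0.02 to 0.78, limma adjusted p = 0.521), higher in males on 4 of 6 slides. Without M WT replicate 4 the difference was 0.21. miR-199a-3p differed by -0.23 (SE 0.18, interval -0.60 to 0.14, limma adjusted p = 0.605). Neither member passed the test, and 0.00% of the 120 miRNAs did in this contrast, with 11 at an unadjusted p under 0.05. The exact permutation test and the methods' t-test also called 0 of the 120 after adjustment.

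Between the transgenic groups the members lay closer. M c-Raf minus F c-Raf was 0.05 for miR-214 (SE 0.19, interval -0.35 to 0.45) and -0.06 for miR-199a-3p (SE 0.18, interval -0.43 to 0.31), with a limma adjusted p of 0.992 for both. Here 2.50% of the 120 miRNAs were called. The effect of c-Raf in males minus that in females was -0.34 for miR-214 (SE 0.27, interval -0.90 to 0.23) and 0.17 for miR-199a-3p (SE 0.25, interval -0.35 to 0.70), with a limma adjusted p of 0.865 for both, and was -0.16 and 0.04 without M WT replicate 4. In this contrast 0.00% of the 120 miRNAs passed limma's test, with 4 at an unadjusted p under 0.05 and 0 to 2 passing over the alternative settings. A difference between the sexes in the c-Raf effect on either member was thus not shown, and the interval for miR-214 reached -0.90.

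The difference between miR-214 and miR-199a-3p within arrays, likewise tested on arrays that entered the choice, was larger in M WT than in F WT by 0.62 (SE 0.32), on 6 of 6 slides, although the groups overlapped (exact two-sided permutation test over 924 divisions of the 12 arrays, p = 0.00433, adjusted over 2 comparisons p = 0.00866). Without M WT replicate 4, which has the highest value and no detected miR-199a-3p, it was 0.31 (adjusted p = 0.0173, exact permutation). The brighter probe of each miRNA gave 0.71 (SE 0.34) with the same p. The call was lost with the mean of both probes (0.66, adjusted p = 0.173, exact permutation), with normexp (0.05, adjusted p = 0.751, exact permutation) and with quantile normalization (0.39, adjusted p = 0.684, exact permutation). With slides as pairs the adjusted p was 0.0625 by exact sign flips. Beside the p of the comparison in c-Raf, 6 slides gave room for no smaller adjusted value, so that no call was possible there. In c-Raf the difference between the sexes was 0.11 (SE 0.29, adjusted p = 0.758, exact permutation).

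No relation between the members from array to array within groups was shown. With group means removed, the scaled values of miR-214 and miR-199a-3p over 24 arrays had a Pearson r of -0.43 (permutation p = 0.0921) and a Spearman rho of -0.13 (permutation p = 0.571, 100000 resamples within groups, 1 relation computed). The negative r rested on few arrays. It was -0.11 without M WT replicate 4 alone, and 0.33 over the 22 arrays left without both M WT replicate 4 and replicate 2 of F c-Raf, the 2 farthest from the miR-214 median. Values of 1 array share its brightness factor.

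The miRNAs most like each member were taken as those with the highest Pearson correlation over 24 arrays after the group means were removed. For miR-214 they were miR-92a (r = 0.82), miR-455 (0.79) and miR-331-3p (0.76), and for miR-199a-3p they were miR-429 (0.68), miR-34b-5p (0.65) and miR-195 (0.63). miR-92a belongs to a proliferation-linked miRNA cluster, miR-429 one of the epithelial miR-200 family and miR-34b-5p one of the miR-34 family. The 2 sets of 3 shared no miRNA. These r are given for all 24 arrays only, without a check that leaves out outlying arrays. miR-429 was detected on 13 of the 24 arrays. None of the 6 passed the limma test between c-Raf and WT in either sex alone, and the lowest limma adjusted p was 0.0727 for miR-429 in females. Over both sexes miR-429 was called higher in c-Raf (0.73, SE 0.20, limma adjusted p = 0.0181). The closest in size to miR-214 was miR-455, at -0.83 (SE 0.32, limma adjusted p = 0.146) in males and -0.62 (SE 0.32, limma adjusted p = 0.429) in females.

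Other forms of the cluster were seen on few arrays. miR-214*, the other arm of the miR-214 hairpin, was detected on 0 of 24 arrays. miR-199b*, from the related gene Mir199b, was detected on 9 arrays, of which 4 were M c-Raf, 1 M WT, 2 F c-Raf and 2 F WT. It passed no test between c-Raf and WT, with -5.59 against -6.05 in males (limma adjusted p = 0.365) and -5.68 against -5.98 in females (limma adjusted p = 0.770).

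The cluster is often used as a mark of mesenchymal cells, and the other stromal and smooth muscle miRNAs of a list of 12 were set beside it. Of these 12, 11 were on the array, 6 were tested and 2 were detected on no array. miR-143 and miR-145, abundant miRNAs of smooth muscle, were detected on 3 of 24 arrays each, while miR-22 and miR-125b-5p were detected on 24, miR-99a and miR-10a on 20 and miR-100 on 12. These counts do not settle which cells the RNA came from, and the cluster is named by its genes here. None of the 6 tested was called in either sex, beside 2.50% and 5.00% of all miRNAs, and their median difference was 0.23 in males and 0.00245 in females. By mean level the highest of the 6 were miR-22, miR-125b-5p and miR-10a. Their differences were 0.21 (SE 0.21), 0.21 (SE 0.30) and 0.25 (SE 0.24) in males and 0.23 (SE 0.21), -0.32 (SE 0.30) and 0.08 (SE 0.24) in females, none past the test. At an unadjusted p under 0.05 there was 1 of the 6 in males (miR-99a) and 0 in females.

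The summed scaled level of the stromal list ran from 1.34 to 1.88 in M c-Raf, 1.24 to 1.74 in M WT, 1.34 to 2.08 in F c-Raf and 1.37 to 1.75 in F WT, and the ranges overlapped. Of 3 erythroid miRNAs, 2 were tested and miR-144 was detected on no array. miR-486, abundant in red cells, was lower in M c-Raf than in M WT (-1.41, SE 0.33, limma adjusted p = 0.0162) and, over both sexes, in c-Raf than in WT (-1.10, SE 0.23, limma adjusted p = 0.00214). In females its difference of -0.80 (SE 0.33, limma adjusted p = 0.230) did not pass the test. The other erythroid miRNA tested, miR-451, differed upwards. It was 0.64 (SE 0.40, limma adjusted p = 0.325) in males and 0.11 (SE 0.40, limma adjusted p = 0.935) in females. The 2 erythroid miRNAs thus did not share a direction. The summed level of the erythroid list was 0.102 to 0.184 in M c-Raf, 0.110 to 0.521 in M WT, 0.102 to 0.197 in F c-Raf and 0.122 to 0.253 in F WT. Whether the red cell content has a part in the miR-214 values was not tested.

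Of 2 tested cardiac and skeletal muscle miRNAs, 1 endothelial, 9 epithelial and 5 leukocyte miRNAs, limma called none in either sex alone, with 4 in males and 3 in females at an unadjusted p under 0.05. Over both sexes, where 15.0% of the 120 miRNAs were called, it called 4 of them, all higher in c-Raf. They were endothelial miR-126-3p (0.75, SE 0.21, limma adjusted p = 0.0217), epithelial miR-200a (0.73, SE 0.21, limma adjusted p = 0.0217) and miR-429, and leukocyte miR-342-3p (0.51, SE 0.15, limma adjusted p = 0.0252). The median differences of these 4 lists were -0.69, 0.95, 0.53 and 0.46 in males and -0.76, 0.54, 0.42 and 0.20 in females. The endothelial value is that of miR-126-3p, a miRNA of vessel walls, whose summed list level ran from 0.198 to 0.459 in M c-Raf and from 0.0740 to 0.324 in M WT. Summed levels overlapped between c-Raf and WT in both sexes for every list, and their part in the values of the cluster was not tested.

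The deposited value table, scaled by a percentile of all spots of an array, separated the groups less. miR-214 had a median of 12172 units in M WT (6443 to 20761) and 13676 in M c-Raf (1370 to 23550), and of 11205 in F WT (6213 to 32416) and 7977 in F c-Raf (3010 to 26082). In that table the miR-214 groups overlapped in both sexes. miR-199a-3p had a median of 5785 units in M WT (1912 to 10560) and 17882 in M c-Raf (1263 to 29317), against 7181 in F WT (4453 to 22339) and 8096 in F c-Raf (5361 to 19341). The table's column medians over the miRNAs it lists ran from 299 to 2273 units, so its arrays were not on a common level.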

How the data were processed

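Per the labels and the file headers, RNA was labelled with Cy3 and arrays were read with Agilent Feature Extraction (10.7.3.1 in the headers, 8.1.3 in the labels). Spot intensities in the deposited files had been background-subtracted by that software, with arrays left unscaled. A deposited table gives linear intensity values, in which at least 99.569% of the values of each array lay within 1% of the median spot intensity times 1 factor per array, a constant over the 75th percentile of all spots; all columns were matched (0 not matched). The table's direction and scale were settled by this check, and it is not centred.

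The members and lists were chosen with earlier results of these data known. Named miRNAs were the members, other forms of the cluster, miRNAs sharing a seed, the 3 most correlated with each member, and, from each marker list, those called or the 3 with the highest mean. Spot intensities were divided by array brightness, summarised by the median, floored at 0.01 and log2-transformed. Mouse miRNAs detected on at least 6 arrays were fitted in limma 3.58.1 (R 4.3.3) with 4 groups and no block, 20 residual and 1.80 prior degrees of freedom, and Benjamini-Hochberg adjustment over 120 miRNAs. The design was tested on simulated data. Differences within arrays were tested by exact permutation in scipy 1.17.1. The labels count 6 animals in each group. Alternatives covered the scaling, background (normexp with an offset of 50 on median signals, as the files used here carry no mean signal), spot summary, floor, filter, array weights, slide block, scans and leaving out each array. The number of arrays limits the precision.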

Additional observations from a re-analysis of the deposited data

Results flagged for a closer look

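Of 12 combinations of a group with miR-214, miR-199a-3p or the difference between them, 4 held 1 array far from the other 5, where chance gives about 5% of groups. The 12 are not independent, since the difference is taken from the other values. M WT replicate 4 is counted both for miR-214 and for the difference, so the count cannot be set directly against that share. miR-214 stood apart in M WT replicate 4, at -1.34 on the log2 scale, and in F c-Raf replicate 2, at -4.073. miR-199a-3p stood apart in M c-Raf replicate 3, at -2.646. The difference between miR-214 and miR-199a-3p within arrays stood apart in M WT replicate 4, at 2.728. M WT replicate 4 had a brightness of 52.8, the lowest of its group, and did not detect miR-199a-3p. M c-Raf replicate 3 had a brightness of 529. The part of brightness in these values was not tested.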

How the results depend on the processing

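The replicate number marks the slide. The deviations of same-numbered arrays correlated in all 4 pairs of groups on slide 2 (0.43 to 0.68) and slide 3 (0.39 to 0.71), the slides of scan 4, but not in all pairs on the others, where values went down to -0.35, so the numbers were not taken as pairs throughout. As a replicate block it left the miR-214 differences at -1.03 and -0.69 and changed no limma call of a member. It allowed no call of the difference between miR-214 and miR-199a-3p within arrays, M WT minus F WT (0.62, adjusted p = 0.0625 by exact sign flips). Adjusted over 2 comparisons, and beside the p of the comparison in c-Raf, 6 slides allow no smaller value. The block raised the count of miRNAs called from 6 to 10 in females and from 18 to 32 over both sexes. Over all settings limma called 0 to 6 miRNAs in males and 0 to 11 in females. No member passed limma's test between the sexes or of their interaction under any setting (adjusted p from 0.357 for miR-214 and 0.457 for miR-199a-3p in WT, from 0.116 in c-Raf for both, and from 0.0914 and 0.101 for the interaction).

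With the 75th percentile over all non-control spots, with no scaling and in the authors' value table, miR-214 was -0.33, 0.15 and -0.30 in males, -0.45, -0.38 and -0.46 over both sexes, 0.24, 1.07 and 0.33 for the interaction and -0.0932, -0.32 and -0.10 for M WT minus F WT. miR-199a-3p was 1.00, 1.48 and 1.02 in males, 0.62, 0.69 and 0.60 over both sexes and 0.0455, 0.64 and 0.12 for M c-Raf minus F c-Raf. Quantile normalization gave 0.0649 for the miR-214 interaction and 0.0589 for miR-199a-3p, M c-Raf minus F c-Raf, which was 0.0270 with median centring. With normexp, miR-214 was 0.30 in females, -0.24 over both sexes and -0.71 for M c-Raf minus F c-Raf, and miR-199a-3p was -0.44 in males, 0.55 in females, -0.99 for the interaction and 0.32 for M WT minus F WT. The difference within arrays was then -0.34 in males, -0.26 in females, 0.0479 in WT and -0.0367 in c-Raf. The miR-214 difference M c-Raf minus F c-Raf, 0.05, was -0.0537 with a floor of 0.1, -0.0627 with array weights, -0.12 with the brightest probe and -0.0483 with the mean of the probes. That of miR-199a-3p was 0.0261 with array weights. Within arrays it was -0.0433 with the brightest probe, and in WT it was 0.66 with the mean of the probes and 0.39 with quantile normalization (adjusted p = 0.684, exact permutation). Leaving out 1 array at a time, M c-Raf minus F c-Raf ran from -0.11 to 0.11 for miR-214, from -0.15 to 0.0187 for miR-199a-3p and from -0.12 to 0.24 within arrays, with the sign turned without F c-Raf replicate 2. M WT minus F WT within arrays ran from 0.31, without M WT replicate 4, to 0.72. Without M WT replicate 4, miR-214 was 0.21 for M WT minus F WT and -0.16 for the interaction, and miR-199a-3p was 0.17 in males, -0.10 for M WT minus F WT and 0.0433 for the interaction, which was 0.0808 without M c-Raf replicate 3 and 0.28 without M WT replicate 5. In females, miR-199a-3p was 0.0469 when F c-Raf replicate 2 was left out, 0.0594 for F WT replicate 5 and 0.20 for F c-Raf replicate 4. The other differences kept their sign with any 1 array left out. The cause of these changes was not tested.

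Within scan 1, which holds 1 slide with M WT replicate 4, miR-214 was -2.06 in males, -1.215 over both sexes, -1.69 for the interaction, 1.30 for M WT minus F WT and -0.40 for M c-Raf minus F c-Raf. miR-199a-3p was 0.98, -0.26 in females, 1.24 for the interaction, -0.89 in WT and 0.35 in c-Raf, and the difference within arrays was -3.04 in males, -0.11 in females, 2.19 in WT and -0.75 in c-Raf. Within scan 2, miR-199a-3p was -0.13 in males, -0.38 for the interaction and 0.18 in WT, and the difference within arrays was -0.66 in males. Within scan 3, miR-199a-3p was 0.54 in females and -0.34 for the interaction. Within scan 4, miR-214 was -1.25 in females, 0.43 for the interaction and -0.12 in WT. The brightest probe, the mean of the probes and, for the difference within arrays, normexp, quantile normalization, the slide block and the scans were chosen after seeing the data. Leaving out arrays for the detection counts, and all alternatives for miR-199a-5p, were not run, since it was measured on too few arrays. Signal over background limits that member, and dim arrays limit miR-199a-3p.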
